A study of Mus musculus with 8 samples.

Results

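The transcripts described here carry a genome position in place of a gene name on the array, and their probes were at or near background in untreated mouse ES cells. The array holds 16194 such probes for 4610 regions, and its annotation calls them lincRNAs (long intergenic non-coding RNAs). A probe was included when the scanner software marked it as well above background on at most 1 of the 4 untreated arrays. This rule kept 8741 probes in 3380 regions, which are 54.0% of the position-named probes and part of the 55681 probes of the array. Of the 8741 probes, 7630 were detected on no untreated array and 1111 on 1 of them. In 1418 regions every probe met the rule. The other regions also hold probes that were detected in untreated cells. "Silent" stands below for not well above background, which is a limit of the array and not a level of 0.

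E14 (E14Tg2A.4) mouse ES cells, an established line, were either left untreated or given 1 µM all-trans retinoic acid (RA) for 3 days in medium lacking leukemia inhibitory factor. Each condition has 4 biological replicates, whose RNA was hybridized 1 sample per array to Agilent mouse arrays in a single colour. No knockdown or transgene is named for either group. RA-treated cells thus differ from untreated cells both in RA and in the medium, and the effects of these cannot be told apart. The RNA was amplified with an oligo-dT primer, so the arrays report polyadenylated RNA.

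LincRNAs are transcripts with little or no coding potential that lie between protein-coding genes, are often spliced and polyadenylated, and are commonly more restricted to particular cell types than mRNAs. Some act in cis on neighbouring genes, and many have no known role. Airn, a non-coding RNA that overlaps the imprinted gene Igf2r and silences it in cis, is not intergenic in this sense. RA binds nuclear receptors that activate genes of embryonic patterning, among them the Hox genes, and it takes ES cells out of self-renewal.

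The probes are 60 bases long, and a transcript is known here only through them. The sequences below belong to the regions that carry the results: the region that comes first by signal after RA, 4 regions along Airn, and regions beside Hoxb4, Plac1, Dleu2, Mecom and Emx2. They are given 5′ to 3′ as the array annotation lists them, with the position on mouse build mm9. Capitals mark AATAAA, the hexamer best known as a polyadenylation signal, which was searched for in the listed strand only and was present in 3.92% of all position-named probes.
A_30_P01031970 (chr2:115900741-115900800, plus strand): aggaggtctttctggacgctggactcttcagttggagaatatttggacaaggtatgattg
A_30_P01031324 (chr2:115900836-115900895, plus strand): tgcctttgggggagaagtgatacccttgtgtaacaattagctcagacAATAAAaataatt
A_30_P01029084 (chr2:115900563-115900622, plus strand): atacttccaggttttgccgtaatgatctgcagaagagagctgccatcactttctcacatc
A_30_P01022766 (chr17:12944415-12944474, plus strand): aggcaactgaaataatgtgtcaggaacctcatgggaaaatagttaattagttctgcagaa
A_30_P01017675 (chr17:12968254-12968313, plus strand): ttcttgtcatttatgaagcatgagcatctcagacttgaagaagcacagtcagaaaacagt
A_30_P01023098 (chr17:13013684-13013743, plus strand): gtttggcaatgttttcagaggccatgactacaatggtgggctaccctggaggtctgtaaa
A_30_P01023109 (chr17:13023017-13023076, plus strand): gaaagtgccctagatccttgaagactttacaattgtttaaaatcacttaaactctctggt
A_30_P01025504 (chrX:50406766-50406825, minus strand): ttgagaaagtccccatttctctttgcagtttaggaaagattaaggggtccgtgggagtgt
A_30_P01024920 (chrX:50406896-50406955, minus strand): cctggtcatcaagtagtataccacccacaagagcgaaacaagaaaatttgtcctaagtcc
A_30_P01026003 (chr11:96175777-96175836, plus strand): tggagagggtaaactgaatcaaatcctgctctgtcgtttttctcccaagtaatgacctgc
A_30_P01022855 (chr11:96175838-96175897, plus strand): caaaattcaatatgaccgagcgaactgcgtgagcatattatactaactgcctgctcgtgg
A_30_P01019818 (chr11:96175970-96176029, plus strand): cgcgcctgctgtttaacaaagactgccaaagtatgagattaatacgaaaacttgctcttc
A_30_P01023578 (chr14:62294981-62295040, minus strand): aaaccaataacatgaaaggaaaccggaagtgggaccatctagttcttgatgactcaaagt
A_30_P01025230 (chr3:30077400-30077459, minus strand): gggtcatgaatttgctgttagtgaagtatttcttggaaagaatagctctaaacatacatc
A_30_P01022747 (chr19:59508866-59508925, minus strand): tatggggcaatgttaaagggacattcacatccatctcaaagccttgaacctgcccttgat

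By sequence, the probes that came up after RA did not stand out from the silent ones. The median GC content was 43.3% both for the 455 probes that came up (below) and for the 7478 silent on all RA arrays, and 45.0% for the 6688 position-named probes detected on 3 or 4 untreated arrays. AATAAA was present in 4.84%, 3.89% and 3.86% of these sets. The match is a description of the letters and not of a used site.

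Most position-named probes that were silent in ES cells stayed silent after 3 days of RA. Of the 8741 probes, 7478 were well above background on no RA array, 615 on 1, 193 on 2, 150 on 3 and 305 on all 4. A probe is said to appear when it was detected on at least 3 RA arrays, and 455 probes (5.21%) in 296 regions did so. Over all 21973 probes of the array that were detected on at most 1 untreated array, named genes included, the share was 7.45%, and over the 13232 of them that are not position-named it was 8.94%. Detection on all 4 RA arrays and on no untreated array, the strictest reading, was met by 202 probes in 142 regions.

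The reverse was more frequent among position-named probes than among other probes. Of the 6688 probes detected on 3 or 4 untreated arrays, 887 (13.3%) were detected on at most 1 RA array, and of the 25169 other probes 1023 (4.06%) were. These shares were not tested, since the members were chosen by the untreated arrays.

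**Figure D1:**
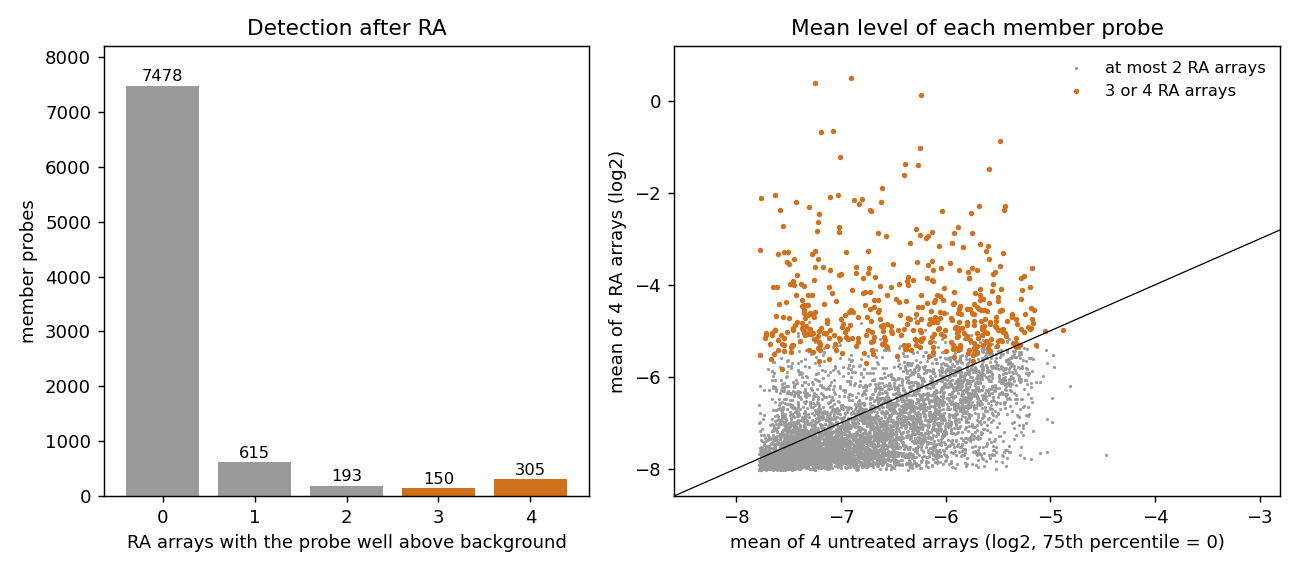
The left panel counts the 8741 member probes by the number of RA arrays on which they were well above background (7478, 615, 193, 150 and 305 for 0 to 4 arrays). The right panel sets the mean of the 4 RA arrays against the mean of the 4 untreated arrays for each probe, as log2 values with the 75th percentile of the array at 0, with the 455 appearing probes in orange and the line of equal level in black. Almost all appearing probes lie above the line, and the other members form a cloud at the low end of both axes.

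Detection depends on the array as well as on the cells. The lowest signal that was still marked as well above background, here called the floor, lay at -5.23, -5.62, -5.69 and -5.20 on untreated arrays 1 to 4 and at -5.70, -5.57, -5.73 and -5.77 on the RA arrays (log2 relative to the 75th percentile of the array). Untreated arrays 1 and 4 thus had the highest floors, and they detected 210 and 87 of the members, against 431 and 383 on untreated arrays 2 and 3 and 562 to 756 on the RA arrays. The part of the floor in the number of appearing probes was not tested. The count of 455 ranged from 483 to 639 when an untreated array was left out of the rule. No spot was saturated.

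The difference between conditions is given below as a bound when the probe was silent on every untreated array. It sets the mean of the RA arrays against the mean, over the untreated arrays, of the floor or of the probe's own signal where that was higher. It is a bound on the scale of the scanner's processed signal only. After normexp background correction and in the authors' processed table the difference of 29 of the 31 regions named below was smaller than the bound. Of the 305 appearing probes with such a bound, 288 had a bound above 1-fold, with a median of at least 1.67-fold. The bound was at least 2-fold for 120 probes, 4-fold for 47 and 10-fold for 13, and the highest was at least 61.7-fold. In the limma fit over all probes, with thresholds of 0.05 for the FDR and 1.5 for the fold, 345 of the 455 were called higher and 0 lower, and over all 8741 members 493 were called higher and 663 lower. Over all probes of the array 12.9% were called higher and 21.6% lower. The members were chosen on the untreated side of this contrast, so nothing is read from these counts. The median log2 difference was -0.28 over all probes, -0.28 over the members and 1.81 over the appearing probes, and the median over all probes was -0.0003 when the arrays were quantile normalized.

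Markers of ES cells fell after RA and markers of several lineages rose. All 8 ES cell markers on the list, among them Pou5f1 and Nanog, were detected on every untreated array and were called lower (limma, adjusted p = 0.00015 and 0.00017 for these 2). All 7 primitive endoderm markers and 5 of 6 fibroblast, smooth muscle and mesoderm markers rose, for example Foxa2 by 5.03 and Acta2 by 9.19 on the log2 scale. Of 4 neural markers, Nes rose and Tubb3 fell. Of the 4 blood and endothelial markers, Pecam1 fell by 2.96, Kdr (-0.05) and Hba-a1 (-3.14, adjusted p = 0.12) were not called, and Ptprc was detected on no array. In such bulk samples a new cell type and more RNA per cell cannot be told apart, and the part of these lineages in the appearance of any transcript was not tested.

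The first region by the rule, which orders regions by the signal of their probes after RA, was chr2:115900355-115900904_F, 550 bases on the forward strand. A signal depends on the probe as well as on the transcript, so this order is not one of abundance. Its probe A_30_P01031970 read -6.25, -6.74, -7.37 and -7.27 on untreated arrays 1 to 4 and 0.78, 0.51, 0.18 and 0.57 on RA arrays 1 to 4. All untreated values were below the floor and all RA values far above it, which gave at least 61.7-fold. The difference was 17.8-fold after normexp correction and 17.3-fold in the authors' table. The other probes of the region gave at least 56.8-fold and 18.6-fold. The nearest named transcript, 2810405F15Rik, has its probe 163 bases away on the opposite strand and was detected on none of the 8 arrays.

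The next regions lie along Airn, the non-coding RNA that is made from the paternal chromosome in antisense to Igf2r. Airn itself is a named gene and not a member. Of its 4 probes, 2 were detected on every array and 2 were silent on the untreated arrays and detected on all RA arrays. The probe with the highest signal read -2.996, -2.18, -2.62 and -3.68 in untreated cells and 3.71, 2.92, 2.60 and 2.76 after RA, a rise of 5.87 ± 0.35 (log2, SE, n = 4 + 4; limma, adjusted p = 7.5e-06). The other probe detected on every array rose by 4.38. The 2 silent probes gave bounds of at least 4.22 and 2.85 on the log2 scale, and they differed by 2.97 and 1.56 in the authors' table. The untreated and RA arrays did not overlap on any of the 4 probes.

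The position-named probes rose with Airn over 78.2 kb. In chr17:12990484-13018375_F, which covers part of Airn, the only probe read -6.65, -6.03, -5.95 and -6.31 in untreated cells and 0.50, -0.36, -0.12 and 0.47 after RA, at least 47.2-fold (14.5-fold with normexp and 14.1-fold in the authors' table). In chr17:12965849-12968519_F all 3 probes were silent on all untreated arrays and detected on all RA arrays, by at least 27.1-fold, 14.3-fold and 4.596-fold. In chr17:13008796-13023201_F 2 of 3 probes appeared (at least 10.5-fold and 3.84-fold), and the remaining probe, detected on all 8 arrays, rose by 1.82.

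Region chr17:012941161-012944859, at the start of Airn, shows how the rule can divide the probes of a region. Of its 5 probes only A_30_P01022766 was silent in untreated cells, with -7.24, -6.81, -7.05 and -7.20 against 0.20, -0.84, -1.14 and -0.84 after RA (at least 27.5-fold). The other 4 were detected on 2 to 4 untreated arrays and rose by 4.03 to 5.91.

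The rise was found on the forward strand. Of the reverse-strand probes in the same stretch, that of chr17:12990484-13018375_R was detected on all 8 arrays and was lower by 0.87 (limma, adjusted p = 0.045). In chr17:13020750-13033750 (forward and reverse), which starts within the last appearing region, the 6 members did not appear and the 2 detected forward probes had differences of 0.60 and 0.60 (adjusted p = 0.36 and 0.055).

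**Figure D2:**
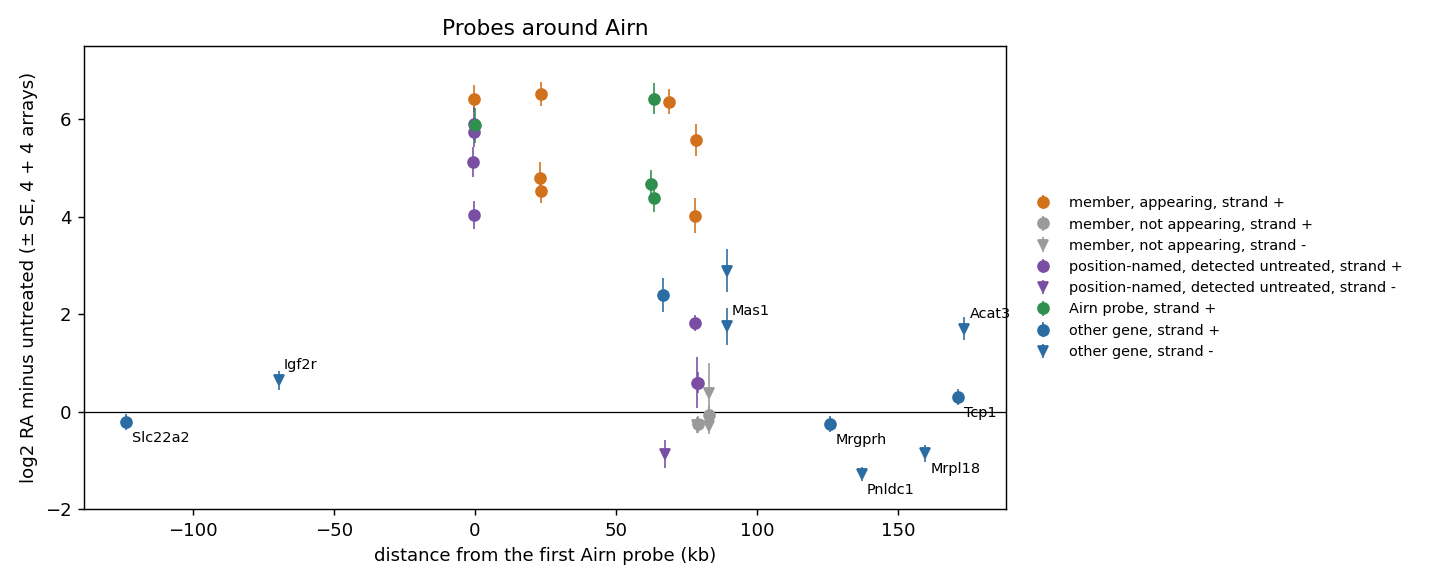
Log2 difference (RA minus untreated, ± SE of the limma fit, 4 arrays each) of each probe against its distance in kb from the first Airn probe, by kind of probe (colour) and strand (circles plus, triangles minus). For probes silent in untreated cells the fitted difference is plotted, not the bound. The Airn probes and the appearing members lie between 4.02 and 6.52 up to 78.2 kb, and the named genes on either side lie between -1.28 and 2.89.

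The genes around Airn differed in direction. Igf2r, whose product takes IGF2 from the cell surface to the lysosome, was higher by 0.65 (limma, adjusted p = 0.028), a call that passed both thresholds in 10 of 17 settings of the fit. It was lost on each slide alone and without untreated array 1 or 2 or RA array 1, 3 or 4. The transporter gene Slc22a2 was detected on no array. On the other side Mas1, a receptor gene on the minus strand, was silent in untreated cells and detected on 3 and 4 RA arrays by its 2 probes (at least 1.29-fold and 2.90-fold). In the authors' table these probes differed by 0.34 and 0.82 on the log2 scale, each less than its bound. Pnldc1 and Mrpl18 fell by 1.28 and 0.85, Acat3 rose by 1.70, and Tcp1 differed by 0.29 (adjusted p = 0.20). Alleles were not measured, so nothing can be said of imprinting.

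On the X chromosome, too, part of the probes of a region had been detected before RA. Region chrX:50400250-50410825_R has 6 probes, of which 4 are members and 3 appeared. A_30_P01025504 read -5.46, -5.43, -5.62 and -5.41 in untreated cells and -0.04, -1.15, -1.51 and -0.77 after RA, at least 22.7-fold (6.66-fold with normexp and 6.51-fold in the authors' table). The 2 probes detected in untreated cells rose by 5.64 and 4.35, and a member, A_30_P01026587, did not appear and differed by -0.10. Within the region lies the probe of ENSMUST00000151099, silent before and detected on all 4 arrays after RA (at least 14.98-fold). Its log2 difference was 2.43 with normexp and 2.395 in the authors' table, both smaller than this bound. The nearest gene with a RefSeq symbol, Plac1, which is known for its expression in trophoblast, has its probe 12408 bases away. Plac1 was detected on 1 untreated array and on all RA arrays, with a fitted difference of 6.70 ± 0.39 (log2, SE; limma, adjusted p = 6.7e-06), which was 3.97 in the authors' table.

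Hoxb4, a homeobox gene of the hindbrain and trunk and a known RA-responsive gene, rose most of the nearest named genes. The region chr11:96175764-96176029_F lies 6856 bases from its probe on the same strand, inside the Hoxb cluster. Its probe A_30_P01026003 read -5.27, -7.56, -6.48 and -6.23 in untreated cells and -2.01, -3.29, 0.01 and -0.16 after RA, at least 16.8-fold (5.38-fold with normexp and 5.24-fold in the authors' table). RA arrays 3 and 4 were high and RA array 2 was low, and the other 2 probes had the same order. Hoxb4 read 2.25, 1.53, 3.40 and 3.49 on the same arrays, also lowest on array 2, and rose by 6.42 ± 0.49 (log2, SE; limma, adjusted p = 2.2e-05). Arrays 1 and 4 share a slide, as do arrays 2 and 3, and the part of the slide in this spread was not tested.

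The Hox clusters otherwise held few of these transcripts. Between the outermost Hoxb probes of the array (chr11:96057854-96228510) there are 5 position-named regions with 17 probes, of which 9 are members and 3, all in the region above, appeared. Of 3 probes in chr11:96173788-96174352_F, 2 were members and were detected on RA arrays 3 and 4 only. Of the 8 probes detected in untreated cells 1 was higher and 4 were lower after RA, while 9 of 10 Hoxb genes were higher and 0 lower. No position-named region lies between the outermost probes of the Hoxa, Hoxc or Hoxd clusters. This count was made after the values had been seen.

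Beyond the Hoxc cluster, whose last probe ends at 102867272 on chromosome 15, 2 overlapping regions appeared, with RA array 2 lowest on each of their 7 appearing probes. In chr15:102920547-102933472_R 4 of 5 probes appeared. Probe A_30_P01022277 read -7.30, -6.67, -6.04 and -7.30 in untreated cells and -2.31, -3.89, -1.43 and -1.34 after RA (at least 9.16-fold). All 3 probes of chr15:102926581-102932542_R appeared as well. The nearest named transcript, ENSMUST00000100163, was detected on 1 RA array.

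On chromosome 16, 2 more regions had a high signal. Region chr16:34524589-34573439_R has 5 probes, and 2 of them appeared, by at least 10.5-fold and 9.73-fold. Its 3 probes that were detected in untreated cells rose by 1.84 to 3.86. The shorter chr16:34559623-34560462_R, inside it on the same strand, had 2 of 3 probes appearing (at least 9.52-fold for the higher). No named gene has a probe within 100 kb. The nearest, Ropn1, a gene of the sperm flagellum, was detected on 3 untreated arrays and on no RA array, at least 1.47-fold lower (limma, adjusted p = 0.00086). Its log2 difference was -0.427 after normexp correction and -0.415 in the authors' table. Both are smaller than this bound and than the 1.5-fold threshold, so the call was lost there.

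Region chr15:100909469-100910253_F had 3 of 3 probes appearing, with -7.23, -7.57, -6.76 and -6.87 before and -1.86, -2.11, -2.30 and -2.10 after RA on A_30_P01027275 (at least 10.2-fold). No RA array stood apart on this probe. The transcript TC1755383, 26912 bases away, rose by 1.60, and Scn8a, a voltage-gated sodium channel gene 33708 bases away, differed by 0.28 (adjusted p = 0.28) on its probe with the highest signal, while its other 2 probes were called lower.

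**Figure D3:**
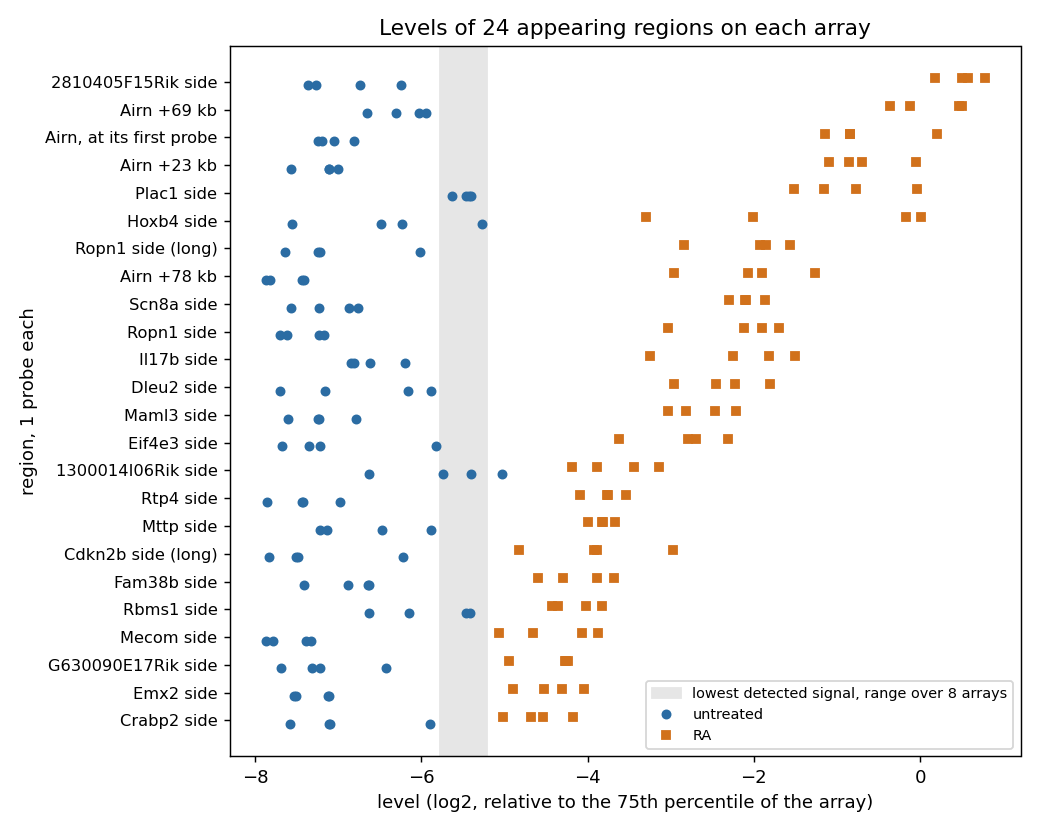
Levels of 24 appearing regions, 1 probe each, with a mean above -5 after RA, on the 4 untreated arrays (blue circles) and the 4 RA arrays (orange squares), as log2 values with the 75th percentile of the array at 0. Regions are named by the nearest gene with a RefSeq symbol or by their distance from the first Airn probe, and "long" marks regions over 40 kb. The grey band is the range of the floor over the 8 arrays (-5.77 to -5.20). In every region shown the untreated values lie to the left of all RA values. The probes were chosen by their detection on these arrays, so nothing is read from this gap. The RA arrays differ most for the region beside Hoxb4 (-3.29 to 0.01).

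A further 10 regions were named because 3 or more of their probes went from no untreated array to all RA arrays. Near chr6:99472981-99484210_R, where 5 of 6 probes appeared (at least 5.98-fold for the highest), the transcript B930049P21Rik rose by 2.98 (log2). Eif4e3, the nearest gene with a RefSeq symbol, was detected on 1 untreated array and had a fitted difference of 3.69, which was 1.59 in the authors' table. Near chr2:60581618-60589907_F all 5 probes appeared, but only by at least 1.45-fold to 2.36-fold for those silent on all untreated arrays. There Rbms1, which encodes a nucleic acid binding protein, has its closest probe 358 bases away on the opposite strand. The Rbms1 probe with the highest signal, 906 bases away, rose by 3.09 ± 0.13 (log2, SE; limma, adjusted p = 2.1e-06), and the closest by 3.58.

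For other regions of this group the nearest named gene rose, within 100 kb for Fam38b and Rtp4 and beyond it for Maml3 and Cdkn2b. A gene is given by its probe with the highest signal, which is not always its closest. Maml3, a coactivator of Notch signalling, rose by 4.94 on a probe 312.9 kb from chr3:51804655-51805883_R (3 of 3 probes, at least 2.81 on the log2 scale), and its closest probe, at 102219 bases, was also called higher. Cdkn2b, an inhibitor of the cell cycle, rose by 3.99 on a probe 136203 bases from chr4:89088538-89130181_F (3 of 3 probes, at least 2.90-fold) and by 3.63 on its closest, at 135759 bases. All 5 probes of chr18:63355660-63369610_R appeared. There Fam38b, now called Piezo2, an ion channel opened by stretch, rose by 4.63 on a probe 184.7 kb away that was detected on 1 untreated array (2.67 in the authors' table). Its closest probe, at 86079 bases, was silent on all untreated arrays, detected on 3 RA arrays and called higher, and the other of its 3 probes was not called. Rtp4 lies 78496 bases from chr16:23534663-23535172_F and rose by 1.42, a call that was lost after normexp background correction, in the authors' table and on slide 1 alone.

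In the remaining regions the neighbour was lower or was not called. Il17b, a cytokine gene 24791 bases from chr18:61809278-61825191_R on the opposite strand, fell by 2.33 ± 0.26 (log2, SE; limma, adjusted p = 0.00016), while all 3 probes of the region appeared. The region's probe with the highest signal read -6.81, -6.20, -6.62 and -6.85 before and -1.50, -1.81, -2.25 and -3.24 after RA (at least 9.42-fold), lowest on RA array 4. Mttp, which loads lipid onto lipoproteins, differed by 0.47 (adjusted p = 0.17) beside chr3:137736327-137752677_F. G630090E17Rik (0.90, adjusted p = 0.058) and 1300014I06Rik (1.298, adjusted p = 0.17) were not called beside chr10:39666719-39679959_R and chr13:34693404-34717987_R. The value of 1300014I06Rik rested on RA arrays 1 and 4, where it was detected, and it was called higher without RA array 3 and on slide 1 alone. G630090E17Rik was called higher without untreated array 4 and with quantile normalization.

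Regions beside genes of 3 lists were looked up next. The lists hold genes that respond to RA (30 on the array, 22 higher and 3 lower after RA), developmental transcription factors (240, with 113 higher and 46 lower) and genes that the study assigned to Cbx8 binding sites in RA-treated cells (110, with 39 higher and 19 lower). For 13 of the 296 appearing regions the nearest named gene is on a list. The genes described here are Crabp2 from the first list, Barx2, Emx2, Hoxb4 and Mecom from the second, and Dleu2, Emx2, Mecom and Nkx1-1 from the third. Of the 5 transcription factor genes in all 3 rose, and of the 4 Cbx8 targets 3 rose, with 0 lower in both. Over all named genes 16.6% were higher and 22.6% lower, and nothing is read from counts this small. The calls of Mecom and Dleu2 were lost in some settings, as given below.

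Mecom, which encodes the zinc finger factor Evi1, had 4 appearing regions on its strand, the closest 1532 bases from its probe. In chr3:30077338-30080281_R all 3 probes appeared. A_30_P01025230 read -7.39, -7.78, -7.87 and -7.33 before and -4.65, -5.06, -4.06 and -3.87 after RA, at least 2.03-fold. Mecom was silent in untreated cells and detected on 3 RA arrays (limma, log2 difference 1.28, adjusted p = 0.017, at least 1.11-fold). This call was lost after normexp correction, in the authors' table and on slide 1 alone.

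Dleu2, the non-coding host gene of the microRNAs miR-15a and miR-16-1, had 3 appearing regions on its strand within 57513 bases of its probe. In chr14:62294849-62301165_R both probes appeared, and A_30_P01023578 read -5.88, -6.16, -7.70 and -7.16 before and -1.81, -2.96, -2.46 and -2.23 after RA, at least 8.42-fold. Dleu2 read -4.16, -5.11, -5.57 and -5.70 before and -2.37, -3.27, -3.72 and -3.57 after RA, so the groups did not overlap, and it rose by 1.90 ± 0.40 (log2, SE; limma, adjusted p = 0.0052). This call was lost on slide 1 alone.

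Emx2, a homeobox gene of the forebrain and the urogenital tract, appeared together with chr19:59498190-59531390_R on the opposite strand 7752 bases away. Emx2 was below the floor on all untreated arrays and read -2.87, -3.54, -3.52 and -3.40 after RA, at least 4.30-fold (a log2 difference of 1.17 in the authors' table). The region's A_30_P01022747 read -7.11, -7.54, -7.51 and -7.12 before and -4.05, -4.31, -4.90 and -4.53 after RA, at least 1.99-fold, and 2 of its 5 probes appeared.

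Crabp2, which carries RA to its receptor, lies 29 bases from chr3:87757295-87774970_R on the opposite strand. It was detected on all arrays and rose by 3.94 ± 0.21 (log2, SE; limma, adjusted p = 4.3e-06), while 1 of the region's 5 probes appeared, by at least 1.79-fold.

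Beside the homeobox genes Nkx1-1 and Barx2 a single probe of the region appeared and the gene was not called. Nkx1-1 differed by 0.37 (limma, adjusted p = 0.27) and Barx2 by -0.03 (adjusted p = 0.95). Their regions are long, and their appearing probe had low bounds, at least 1.24-fold in chr5:33773842-33942967_R and 1.09-fold in chr9:31390809-31591204_F. In the former the untreated and RA arrays overlapped, and 1 of 9 probes appeared. A further 2 of its probes, detected on 3 and 4 untreated arrays, were detected on no RA array (at least 1.47-fold and 1.56-fold lower). The Nkx1-1 probe that lies inside the region was not called either (-1.06, adjusted p = 0.064).

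Over the 31 named regions, 1 probe each, the median bound was at least 3.31-fold, or 1.73 on the log2 scale. The fitted differences, which take the untreated signal below the background limit at its value, had a median of 3.36. That median was 1.02 after normexp background correction and quantile normalization and 0.98 in the authors' processed table.

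The genes nearest to the appearing regions were more often higher after RA than genes in general. For 275 of the 296 regions a named gene has a probe within 100 kb, and these are 228 different genes. Of these 87 (38.2%) were higher and 35 (15.4%) lower in limma, with a median log2 difference of 0.28. Over all 26156 named genes 16.6% were higher and 22.6% lower, with a median of -0.27. The 737 genes nearest to regions that were silent in both conditions were close to that background, with 17% higher and 23.5% lower.

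The shares were also set against genes of like detection. Among neighbours detected on all 4 untreated arrays, 52 of 153 (34.0%) were higher and 34 (22.2%) lower, against 19.6% and 30.5% of all such genes. Of the 62 neighbours that were themselves silent in untreated cells 28 appeared, against 761 of 7968 over all named genes. On the strand opposite to the region only, the nearest genes gave 46 higher and 44 lower of 190. The differences between these shares were not tested.

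**Figure D4:**
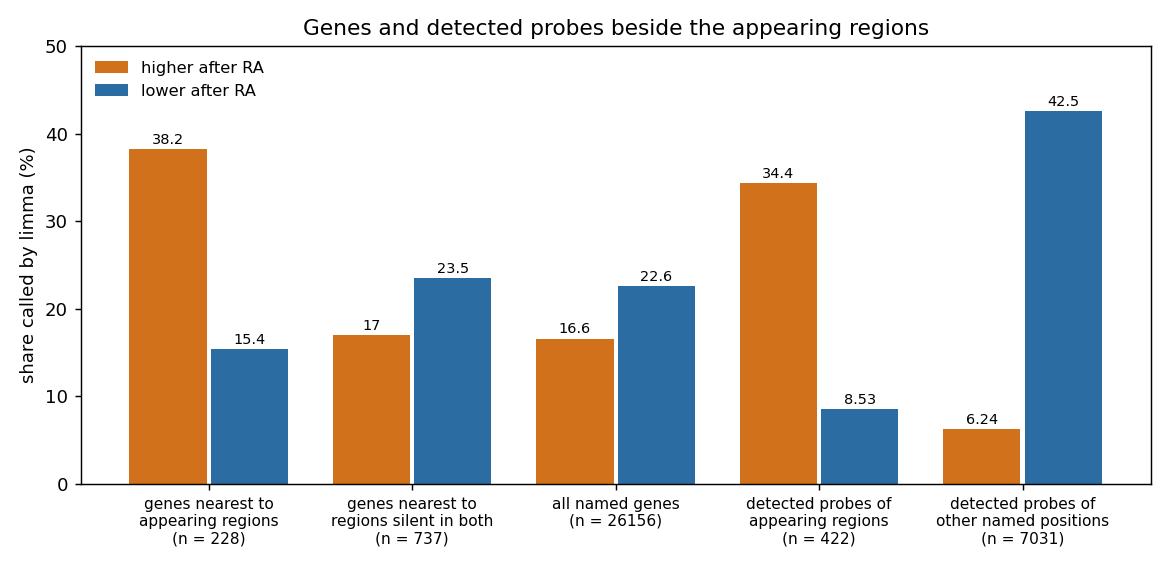
Share of genes or probes that limma called higher (orange) or lower (blue) after RA (thresholds of 0.05 for the FDR and 1.5 for the fold). From the left: the 228 genes nearest to appearing regions, the 737 nearest to regions silent in both conditions, all 26156 named genes, the 422 detected probes of appearing regions and the 7031 other detected position-named probes. The first and the fourth pair have the taller orange bar (38.2% and 34.4%), and in the other 3 pairs the blue bar is taller.

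The neighbours with the largest rises, chosen after their values were seen, were Hoxb4 (6.42), 9130206I24Rik (5.91), whose probe lies within chr4:114585803-114588898_F, and Airn (5.87). A gene probe lay inside the region in 74 of the 296 cases, so that the gene and the region may share a transcript. With such probes left out, 83 of 231 nearest genes were higher and 34 lower. The median distance to the nearest named probe was 7768 bases for appearing regions and 16471 bases for regions silent in both conditions. On slide 1 alone 58 neighbours were higher and 16 lower, and on slide 2 alone 54 and 12, with 2 arrays of each condition on a slide. With each gene taken by its probe closest to the region, 91 were higher and 33 lower.

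Within the appearing regions the probes did not all behave alike. Of the 296 regions, 189 had 1 appearing probe, 66 had 2 and 41 had 3 or more, with at most 5. Of the 281 regions with 2 or more probes on the array, all probes appeared in 29. The regions hold 1208 probes, of which 300 were silent or nearly so in both conditions, 31 were members seen on 2 RA arrays, and 422 had been detected on 2 or more untreated arrays.

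These 422 probes were left out by the rule, but they read the same regions on the same arrays as the probes that chose the regions, so their values are a description. Of them 145 (34.4%) were higher after RA and 36 (8.53%) lower, with a median log2 difference of 0.43. The 7031 other position-named probes detected in untreated cells lie in regions without an appearing probe. Of these 439 (6.24%) were higher and 2991 (42.5%) lower, with a median of -0.59. Over all probes of the array 12.9% were higher and 21.6% lower, with a median of -0.28. The regions were divided by their signal after RA, so nothing is read from the contrast. Probes of a region may share a transcript, and the shares were not tested.

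The opposite strand could be looked up for part of the appearing regions. The array holds probes for both strands at 1067 positions, and 137 of the appearing regions are among them. The opposite strand appeared as well in 10, had been detected in untreated cells in 87, and was silent in both conditions in 40.

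Appearing regions also lay together. Joined when within 100 kb, the 296 regions form 232 loci, of which 48 hold 2 or more regions (112 regions in all) and 9 hold 3 or more. Overlapping regions can be parts of the same transcript. The loci at Airn, Mecom, Dleu2 and Fam38b are among the 9. The Fam38b locus, chr18:63355660-63548085, has 4 regions with 13 appearing probes.

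A locus on chromosome 1, chr1:139795171-139857204, has 5 forward-strand regions with 11 appearing probes beside ENSMUST00000054333. In chr1:139822286-139822985_F all 3 probes appeared, and A_30_P01021937 read -7.05, -6.69, -6.02 and -6.54 before and -2.34, -2.49, -3.41 and -3.55 after RA, at least 5.62-fold. RA arrays 1 and 2 were high there and arrays 3 and 4 low, which differs from the order at Hoxb4. ENSMUST00000054333 was not called (1.23, adjusted p = 0.14). The other locus with 5 regions, chr11:69186873-69197001, had 6 appearing probes beside ENSMUST00000134903, which was detected on all arrays and differed by -0.22 (adjusted p = 0.22).

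Per chromosome the share of members that appeared ran from 2.66% on chromosome 14 to 8.01% on chromosome 18, with no chromosome lacking them. The rule's limit goes by the flags and not by the level. Just inside it A_30_P01029958 of chr5:31856417-31916317_R, detected on 1 untreated array, had a mean of -4.81 in untreated cells, and just outside it A_30_P01018421 of chr9:95295459-95301266_F, detected on 2, had a mean of -6.49. A member with a mean of -4.47, A_30_P01027156 of chr16:90008636-90015586_F, owed it to a single array (3.67 on untreated array 1, and -6.65 to -7.72 on the others), and it was detected on no RA array.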

How the data were processed

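Expression arrays of 4 untreated and 4 RA-treated E14 ES cell samples were used, grouped by the labels. The authors deposited the Agilent Feature Extraction 10.7.3.1 output of each array (positions on mm9), which gives background-corrected intensity values and 0 or 1 flags, and a table of log2 values with the same distribution on all arrays (median 6.76), whose processing is not given in the sources used here. The 3671 control spots and the outlier spots were left out, each array was scaled to its 75th percentile on the log2 scale of the processed intensity, and spots of a probe were averaged. A flag counted when it was set on at least 0.5 of a probe's spots.

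The conditions were compared in R 4.3.3 with limma 3.58.1 (lmFit, eBayes) and Benjamini-Hochberg adjustment over all 55681 probes. Of several probes of a gene, that with the highest 8-array mean was used, and the nearest gene was set by the mm9 position of its probe, since no mm9 genome or annotation was used. In simulated data with independent normal noise, 141 of 200 probes raised by a log2 value of 2 were recovered, with 10 false calls. The simulation changed far fewer probes than were called here, all upward, and had no floor or slide effect. Its figures therefore do not carry over to this fit. A few genes and regions are not reported here, though they stay in the counts. Calls of member probes from this fit are given as counts with nothing read from them, since the rule chose the members by the untreated arrays. The members, lists and alternatives were chosen with earlier results of these data known. Named regions were the 10 with the highest RA signal among those going from no untreated to all RA arrays, those with 3 or more such probes, and at most 12 beside a listed gene. The likeness of other genes to these regions is not reported, because the 8 arrays fall into 2 clusters. Same-numbered arrays deviated together (correlations 0.186, 0.189, 0.104 and 0.151 over 27493 probes detected on all arrays). Those with different numbers had correlations of -0.269 to 0.142, with RA array 3 closer to untreated array 4 (0.130) than to its own number. The same-numbered arrays were on the same slide for numbers 1 and 2 and on different slides for 3 and 4. Untreated array 4 and RA array 3 also shared a slide, and the part of the slide in these correlations was not tested. The replicate numbers were read as pairs in an alternative fit with a block, and the main fit had no block. The pairing rests on the data and the labels, since the methods do not mention it. Alternatives covered the limits of the rule, the flag, scaling and background correction, a filter on dim probes, the replicate and slide blocks, the distance limit and leaving out each array. Those with gene names restricted to the RefSeq table (GRCm38.p6, names only), probes outside the region, the opposite strand, the strictest members, the closest probe of a gene and no outlier spots were added after the data had been seen. The number of arrays limits the precision, and the p-values measure the spread between these cultures.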

Additional observations from a re-analysis of the deposited data

Results flagged for a closer look

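Of 73 groups of 4 arrays (the 31 named regions after RA and the 21 neighbour genes in both conditions), 2 held an array far from the other 3, and chance alone sets about 1 in 20 such groups apart. The first was the region chr10:39666719-39679959_R after RA, where RA array 3 read -4.94 and the others -4.27 to -4.24. The second was Crabp2 in untreated cells, where untreated array 3 read 1.97 and the others 2.65 to 2.70.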

How the results depend on the processing

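The number of members was 8741 and fell to 4632 with the positive-and-significant flag in place of the well-above-background flag. The 455 appearing probes became 305 when all 4 RA arrays were required, 648 with 2 RA arrays and 428 with the other flag. Leaving out an array gave 8817 to 9332 members and 316 to 639 appearing probes. The median fitted log2 difference over the named regions (3.36, where the median bound was 1.73) was 3.71 with quantile normalization, 1.02 with normexp and quantile normalization and 0.98 in the authors' table, and 3.17 to 3.56 without 1 array. The median over the named neighbour genes (1.60) was 0.58 with normexp and 0.56 in the authors' table, and 1.55 to 1.85 without 1 array. The cause of these shifts was not tested.

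With the replicate number as a block 86 of the 228 nearest genes were higher and 35 lower, against 87 and 35 without it, and the pairing changed no call of a named neighbour gene. Fewer were called on a slide alone (16 lower on slide 1, 54 higher and 12 lower on slide 2), within 10 kb (17 lower, of 142 genes) and with the strictest members (52 higher and 13 lower, of 105). Slides alone have fewer arrays, and the other 2 settings fewer genes. On the opposite strand 46 of 190 genes were higher and 44 lower, so the higher calls fell and the lower calls rose, and the cause was not tested. Leaving out an array gave 83 to 89 higher and 32 to 40 lower. The signs of uncalled genes turned for 2810405F15Rik (0.0606 with normexp, 0.055 in the authors' table), 1300014I06Rik (-0.0585 on slide 2) and Barx2 (0.152 with quantile normalization, 0.0902 with normexp, 0.0525 in the authors' table, 0.0756 on slide 2, and -0.327 to 0.144 without 1 array). Over all probes the calls were 7196 higher and 12044 lower, 8299 and 8530 with quantile normalization, and 6271 and 6575 in the authors' table.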
